A study of Mus musculus with 9 samples.

Results

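The genes described here are 39 mouse genes of mitosis, matched by symbol among the 55488 genes listed in each of 9 RNA sequencing libraries of fetal liver blood progenitors. They comprise 7 genes of mitotic cyclins and kinases, 4 of the chromosomal passenger complex, 8 of the kinetochore, 6 of the spindle checkpoint and anaphase, 6 spindle motors and assembly factors, 6 cytokinesis genes, and Mki67 and Top2a. Each library was made from 100 sorted cells of C57BL/6 embryos at embryonic day 14.5, and each group held 3 libraries. The Evi1 HSC group held cells of the genotype Tie2-Cre::ROSA-Evi1 in a haematopoietic stem cell (HSC) gate, which was GFP+, CD150+, CD48-, c-Kit+, Sca-1+ and Lin-. Tie2-Cre is active in endothelial cells and their blood descendants, so cells of both kinds can carry the recombined allele. The WT HSC group was sorted by these surface markers with no GFP criterion, and the WT KL group held c-Kit+, Sca-1-, Lin- cells, a gate of committed progenitors. Both WT groups also carried the ROSA-Evi1 allele, without Cre. No label says that replicates came from separate embryos, and p-values cover the spread among libraries, which may be technical, and no more.

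At the entry into mitosis, cyclin A and cyclin B activate the kinase Cdk1, and the Polo and Aurora kinases drive chromosome condensation and spindle assembly. Kinetochores form on centromeric chromatin marked by the histone variant CENP-A and bind spindle microtubules through the Ndc80 complex. The spindle checkpoint holds back the ubiquitin ligase co-activator Cdc20 until all chromosomes are attached, after which the sister chromatids part and the cell divides. Stem cells of the fetal liver are known to divide actively, unlike most of those of adult bone marrow, and transcripts of many of these genes accumulate in the G2 and M phases of the cycle.

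Many promoters of such genes carry a CHR element, read here as TTTGAA or TTCGAA, which the MuvB complexes recognise, and CCAAT boxes, which the factor NF-Y binds. Promoters of 32 members were matched by symbol in a RefSeq table of build GRCm38.p6, which gives 250 bases before to 50 bases after each start. Searched on both strands, a CHR element stood in 25 of the 32 (78.1%), against 19.4% of all 27025 promoters in the table, counted at the first listed promoter of each gene. A CCAAT box stood in 24 of the 32 (75%), against 37.9% of all, and both motifs stood in 22 (68.8%), against 7.7% of all. A match is a description of the letters and not of a bound site. The following 150 bases upstream of the start show this arrangement in 4 genes and its absence in Cenpp, the gene with the largest change described below. All 5 genes lie on the minus strand, each sequence runs 5′ to 3′ on that strand, and capitals mark the letters of CHR elements and CCAAT boxes read on either strand. The regions are chr4:118437353-118437502 for Cdc20, chr7:135716380-135716529 for Mki67, chr10:69352939-69353088 for Cdk1, chr11:99024190-99024339 for Top2a and chr13:49652786-49652935 for Cenpp.
Cdc20: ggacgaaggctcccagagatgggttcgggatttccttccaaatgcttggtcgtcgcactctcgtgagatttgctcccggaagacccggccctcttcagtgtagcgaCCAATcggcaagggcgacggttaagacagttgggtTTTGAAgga
Mki67: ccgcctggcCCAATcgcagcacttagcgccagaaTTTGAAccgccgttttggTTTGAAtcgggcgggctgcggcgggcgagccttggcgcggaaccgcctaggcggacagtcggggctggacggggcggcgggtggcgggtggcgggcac
Cdk1: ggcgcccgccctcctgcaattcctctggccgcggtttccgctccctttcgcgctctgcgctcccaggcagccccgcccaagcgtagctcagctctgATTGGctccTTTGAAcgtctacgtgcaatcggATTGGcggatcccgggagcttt
Top2a: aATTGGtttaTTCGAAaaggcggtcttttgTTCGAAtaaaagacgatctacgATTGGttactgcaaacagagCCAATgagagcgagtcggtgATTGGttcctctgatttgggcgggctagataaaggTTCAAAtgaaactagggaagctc
Cenpp: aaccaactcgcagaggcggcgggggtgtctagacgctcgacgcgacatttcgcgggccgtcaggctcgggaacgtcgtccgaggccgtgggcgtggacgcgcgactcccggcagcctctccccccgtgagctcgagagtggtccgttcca

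The deposited values are TPM, a transcript abundance, which are scaled by gene length and by the library's total and keep no read depth. Before any result, 2 libraries went against their labels. In the library labelled WT HSC replicate 3, 0.0167 TPM came from Mecom, the locus that encodes Evi1, and 579 TPM from Mpo, a granulocyte enzyme. In WT HSC replicates 1 and 2 these values were 161 and 114 TPM of Mecom and 13.3 and 8.24 TPM of Mpo. In the library labelled WT KL replicate 1 there were 90.8 TPM of Mecom and 13.6 TPM of Mpo, against at most 0.325 TPM of Mecom and at least 279 TPM of Mpo in WT KL replicates 2 and 3. Evi1 HSC libraries held 176 to 210 TPM of Mecom and 23.4 to 27.3 TPM of Egfp. The 2 libraries that went against their labels held 0 TPM of Egfp, and the other WT libraries 0.2 to 0.38 TPM. Across all tested genes the library labelled WT HSC replicate 3 correlated with WT KL replicates 2 and 3 at r = 0.972 to 0.973 and with WT HSC replicates 1 and 2 at r = 0.82 to 0.845. Each comparison is therefore given over 9 libraries and over the 7 left without these 2. Unless named otherwise, WT HSC values below are of replicates 1 and 2, and WT KL values of replicates 2 and 3.

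All 39 members passed the filter of 1 TPM in at least 3 of the 9 libraries, and the median member stood between 26.4 and 48.5 TPM in each library. Their summed level was 1826, 1502 and 1763 TPM in Evi1 HSC, 1552 and 1198 TPM in WT HSC, and 2268 and 1998 TPM in WT KL. The library labelled WT HSC replicate 3 summed to 2122 TPM, in the range of WT KL, and the one labelled WT KL replicate 1 to 1606 TPM, in the range of Evi1 HSC. Top2a, which untangles chromosomes, was the highest member in all 9 libraries, with 120 to 207 TPM. The lowest member differed by group: it was Nuf2 in the 3 Evi1 HSC libraries, Cenpp in WT HSC and Ndc80 in WT KL. WT HSC replicate 2 was the lowest of the 9 libraries for 25 of the 39 members, and WT KL replicate 2 the highest for 14.

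**Figure D1:**
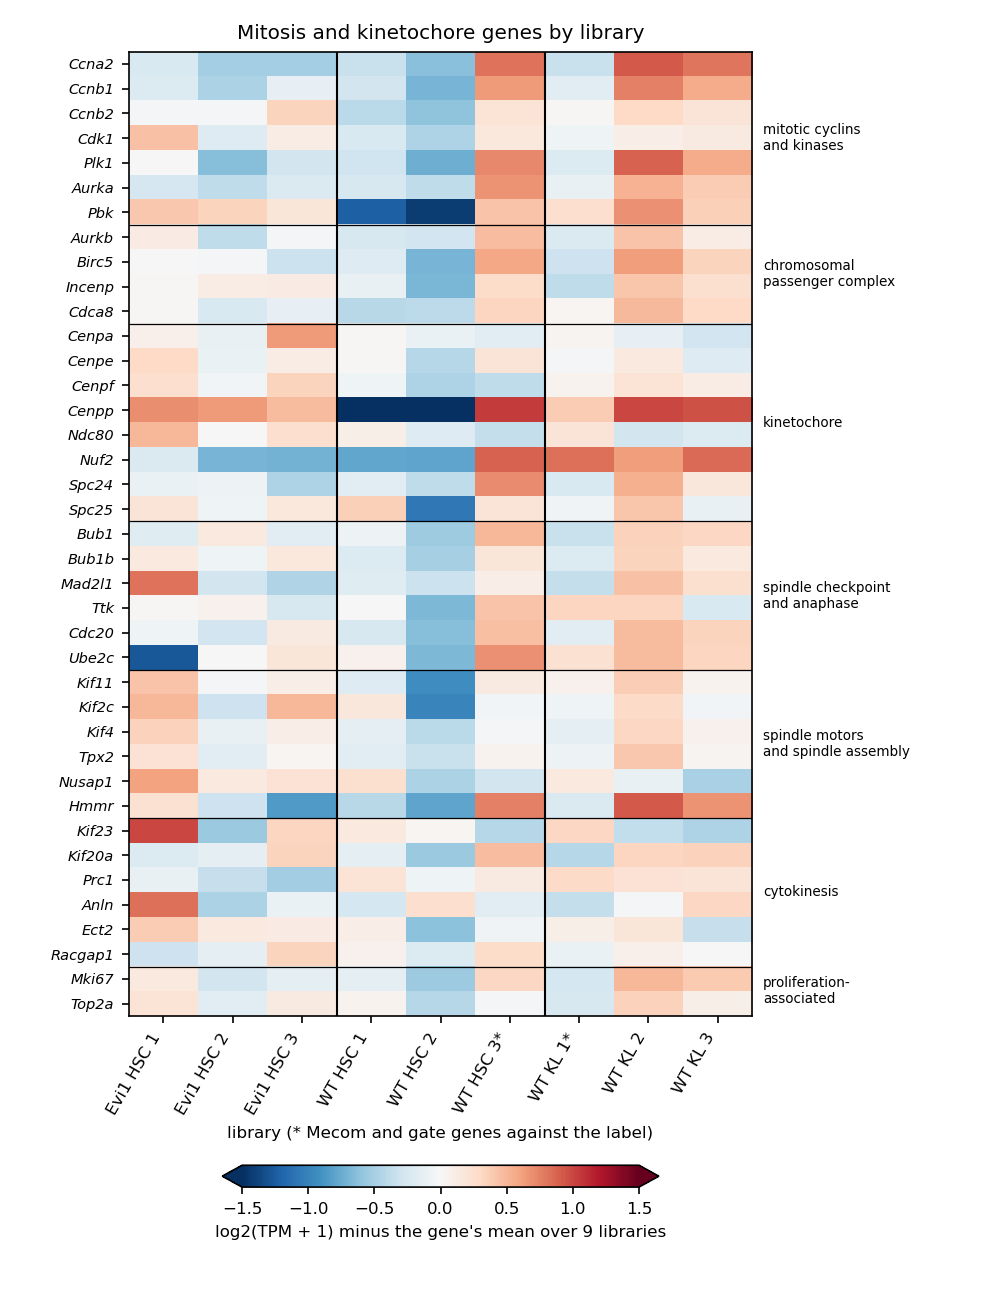
Heat map of the 39 members (rows, grouped by role) in the 9 libraries (columns), coloured by log2(TPM + 1) minus the gene's mean over the 9 libraries; an asterisk marks the 2 libraries that went against their labels. WT KL replicates 2 and 3 and the library labelled WT HSC replicate 3 are mostly red, WT HSC replicate 2 is mostly blue, and Cenpp and Pbk are darkest in WT HSC replicates 1 and 2.

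The first comparison asked how the stem cell gate differed from the committed progenitor gate without Cre. Over the 7 libraries, 17 of the 39 members (43.6%) were lower in WT HSC relative to WT KL and 0 higher, at a Benjamini-Hochberg adjusted p under 0.05 in limma. Among all 19461 tested genes, 10.8% fell and 26.7% rose, 37.5% being called in all. In a fit of the compared groups only, 15 were lower and 1, Kif23, higher. The median log2 fold change was -0.59 over the members and 0.26 over all tested genes over 7 libraries, and -0.26 and 0.06 over 9. In WT KL 15819 and 15550 genes reached 1 TPM, against 18446 and 18806 in WT HSC and 18258 to 18735 in Evi1 HSC. The part of this difference in the median of all genes was not tested. The count of lower members was 6 of 7 among cyclins and kinases, 3 of 4 in the chromosomal passenger complex, 3 of 8 at the kinetochore, 3 of 6 in the checkpoint, 1 of 6 among spindle genes, 0 of 6 in cytokinesis, and Mki67 of the last pair. Groups of libraries did not overlap for 30 members, of which 27 were lower in WT HSC, against 25.2% of all genes lower without overlap, and 3 were higher, against 47.4% of all genes. In the 9 libraries as labelled, limma called 0 members, with 3 of 39 at an unadjusted p under 0.05, where 0.00514% and 1.45% of all tested genes passed these limits. At an unadjusted p under 0.05, 21 members and 47.8% of all tested genes passed over 7 libraries. Without overlap over 9 libraries, 0 members were higher and 1, Cenpf, lower, against 1.42% and 1.94% of all genes. A lower level in such a bulk sample cannot be assigned: fewer cells in mitosis and less RNA per cell cannot be told apart.

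The same limma fit of 7 libraries set Evi1 HSC against WT KL, and the comparison shares the WT KL libraries with the one before. In it 11 of the 39 members (28.2%) were lower in Evi1 HSC and 0 higher, while 14.3% of all tested genes fell and 31.3% rose, 45.5% being called in all. The median was -0.22 over the members and 0.28 over all tested genes over 7 libraries, and -0.08 and 0.18 over 9. Without WT KL replicate 3 the member median over 7 libraries was -0.38. By role, 4 of 7 cyclins and kinases, 2 of 4 passenger proteins, 2 of 8 kinetochore genes, 0 of 6 checkpoint genes, 1 of 6 spindle genes, 1 of 6 cytokinesis genes and Mki67 were lower. With values rescaled to the listed genes, 11 members were lower and 2, Ndc80 and Nusap1, higher, and without Evi1 HSC replicate 2, 6 were lower and 2, Ndc80 and Kif23, higher. Without overlap, 16 members were lower and 3 higher, against 22.9% and 43.6% of all genes. As labelled, over 9 libraries, limma called 0 members, with 2 at an unadjusted p under 0.05, against 0.0103% and 15.2% of all tested genes, and 1 member, Nusap1, was higher and 5 lower without overlap, against 13.5% and 10% of all genes. Over 7 libraries, 15 members and 53.4% of all tested genes had an unadjusted p under 0.05.

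Evi1 HSC set against WT HSC compared cells with and without Cre within the stem cell gate. Only the Evi1 HSC group was sorted for GFP, so Cre, the recombined allele and the GFP criterion cannot be told apart. Over 7 libraries limma called 2 members, Cenpp and Pbk, both higher in Evi1 HSC, among 0.206% of all tested genes, 0.0565% of them higher and 0.149% lower. The median over members was 0.29 and that over all genes 0.00, and 37 of the 39 fold changes were positive, the exceptions being Ube2c at -0.06 and Prc1 at -0.40. Without overlap, 13 members were higher and 1, Prc1, lower, against 11.8% and 12.3% of all genes. Without WT HSC replicate 2, which was the lowest library for most members, the median was 0.12. In the 9 libraries as labelled limma called 0 members, with 4 at an unadjusted p under 0.05, against 0.00514% and 4.66% of all tested genes, and the median was 0.17 over members and 0.11 over all genes. Without overlap over 9 libraries, 2 members, Cenpf and Ect2, were higher and Prc1 was lower, against 9.19% and 6.76% of all genes. Over 7 libraries, 7 members and 8.4% of all tested genes had an unadjusted p under 0.05.

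**Figure D2:**
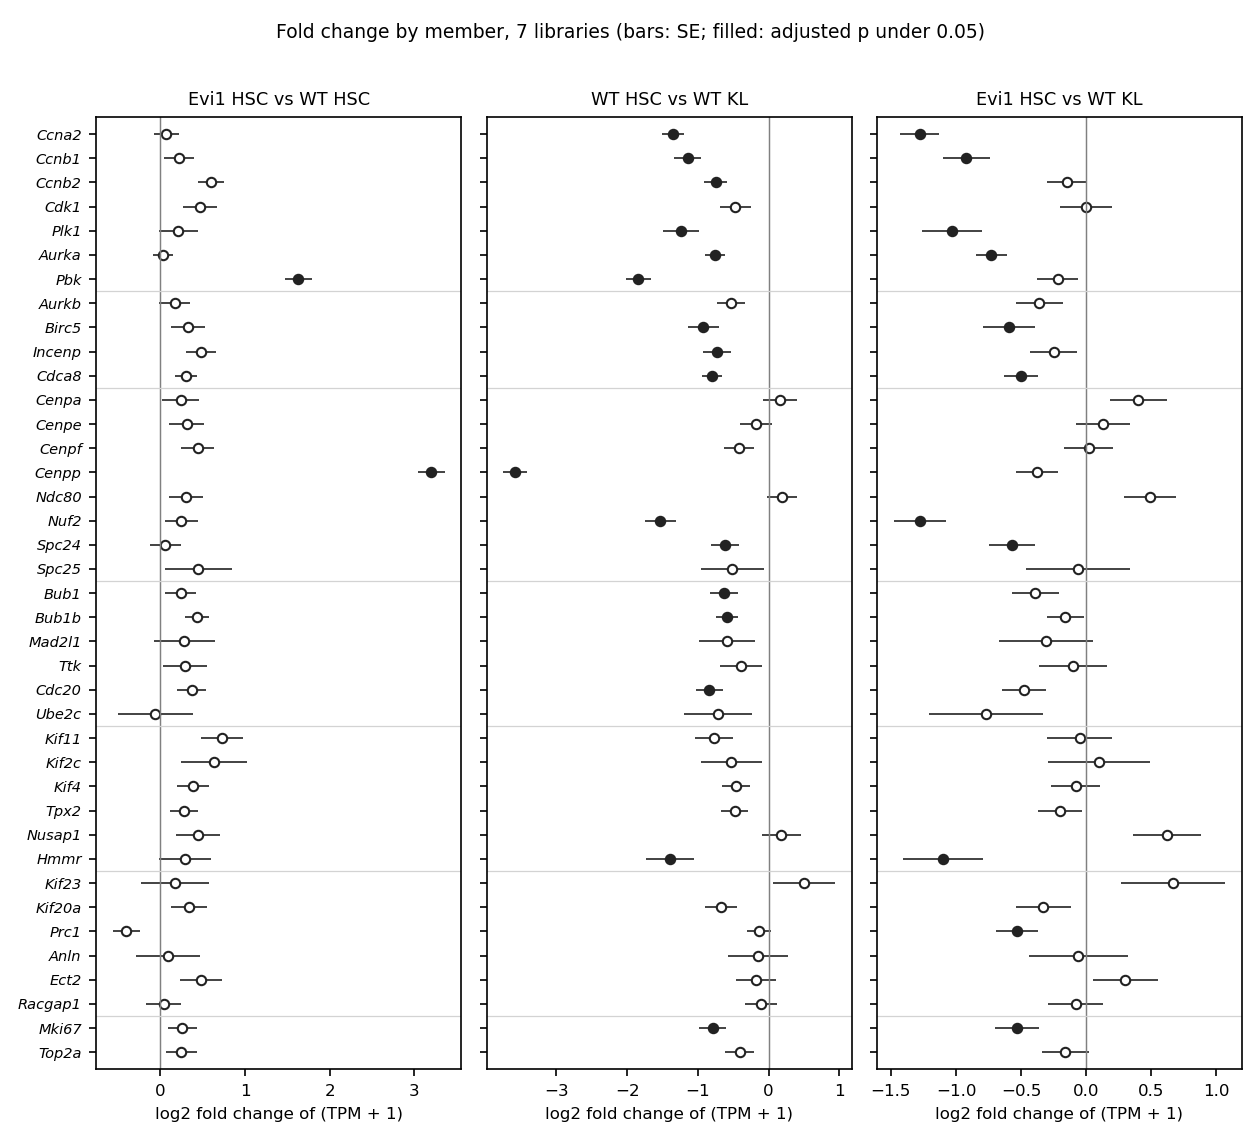
Log2 fold change of each member (points, on the log2(TPM + 1) scale) with its SE (bars) in the 3 comparisons, from the limma fit of 7 libraries; filled points were called at an adjusted p under 0.05. In WT HSC against WT KL, 17 members lie left of 0 as filled points, in Evi1 HSC against WT KL 11, and in Evi1 HSC against WT HSC the 2 filled points, Cenpp and Pbk, lie right of 0.

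Among the cyclins and kinases, the Cdk1 partners Ccna2 and Ccnb1 were low in the stem cell gate of either genotype. Ccna2 (cyclin A) measured 64.8, 53.0 and 53.1 TPM in Evi1 HSC, 59.9 and 48.9 TPM in WT HSC and 145 and 133 TPM in WT KL. The library labelled WT HSC replicate 3 had 134 TPM of it and the one labelled WT KL replicate 1 had 60.04 TPM. The WT KL range thus lay apart from both HSC groups, and each library that went against its label lay with the other gate. Ccna2 fell by 1.35 ± 0.16 (SE) on the log2 scale in WT HSC against WT KL (adjusted p = 0.00116) and fell by 1.28 ± 0.15 in Evi1 HSC against WT KL (adjusted p = 0.000649). Between Evi1 HSC and WT HSC it differed by 0.07 ± 0.15 (adjusted p = 0.951).

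Ccnb1 (cyclin B1) had the same order, with 58.7, 48.6 and 62.2 TPM in Evi1 HSC, 56.0 and 41.4 TPM in WT HSC and 115 and 100.1 TPM in WT KL. Its log2 fold change was -1.14 ± 0.19 in WT HSC against WT KL (adjusted p = 0.00455) and -0.92 ± 0.18 in Evi1 HSC against WT KL (adjusted p = 0.00555), and 0.22 ± 0.18 in Evi1 HSC against WT HSC (adjusted p = 0.81). Plk1, the Polo kinase of spindle assembly and cytokinesis, measured 45.7, 29.1 and 37.7 TPM in Evi1 HSC, 37.1 and 27.2 TPM in WT HSC and 85.3 and 68.0 TPM in WT KL. Neither HSC group reached the WT KL range, and Plk1 fell by 1.24 ± 0.25 in WT HSC (adjusted p = 0.00937) and fell by 1.03 ± 0.23 in Evi1 HSC (adjusted p = 0.0107), each against WT KL, with 0.21 ± 0.23 between the HSC groups (adjusted p = 0.874). Aurka, the Aurora kinase of the spindle poles, stood at 30.6, 27.8 and 31.3 TPM in Evi1 HSC, 30.8 and 27.8 TPM in WT HSC and 52.7 and 48.1 TPM in WT KL. The HSC groups overlapped closely (log2 difference 0.03 ± 0.12), and Aurka fell by 0.76 ± 0.14 in WT HSC and fell by 0.73 ± 0.12 in Evi1 HSC against WT KL (adjusted p = 0.00574 and 0.00344).

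Ccnb2 (cyclin B2) passed against WT KL in WT HSC and not in Evi1 HSC, at 71.6, 71.3 and 91.9 TPM in Evi1 HSC, 54.6 and 47.7 TPM in WT HSC and 89.7 and 83.4 TPM in WT KL. It fell by 0.75 ± 0.16 in WT HSC against WT KL (adjusted p = 0.012), with -0.15 ± 0.15 in Evi1 HSC against WT KL (adjusted p = 0.435). The difference between the HSC groups was 0.60 ± 0.15 and did not pass (adjusted p = 0.312). Cdk1, the kinase itself, was not called in any comparison: it measured 41.3, 26.3 and 32.6 TPM in Evi1 HSC, 25.5 and 21.6 TPM in WT HSC and 32.5 and 33.2 TPM in WT KL. Its log2 fold change was -0.47 ± 0.22 in WT HSC and 0.00 ± 0.20 in Evi1 HSC, each against WT KL, and 0.47 ± 0.20 in Evi1 HSC against WT HSC (adjusted p = 0.595).

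Pbk, a mitotic serine/threonine kinase at chr14:65805837-65817822 on the plus strand (GRCm38), was low in WT HSC only among the 7 libraries. It had 28.8, 27.4 and 24.7 TPM in Evi1 HSC, 8.69 and 7.43 TPM in WT HSC and 35.4 and 27.9 TPM in WT KL. The libraries labelled WT HSC replicate 3 and WT KL replicate 1 held 29.4 and 25.9 TPM, both outside the range of the other WT HSC libraries. The library labelled WT KL replicate 1 carried no Cre by its label and held 90.8 TPM of Mecom, yet its Pbk lay within the Evi1 HSC range. Pbk was higher in Evi1 HSC than in WT HSC by 1.63 ± 0.16 (adjusted p = 0.0313) and lower in WT HSC than in WT KL by a log2 fold change of -1.84 ± 0.18 (adjusted p = 0.000507). Between Evi1 HSC and WT KL its change was -0.22 ± 0.16 (adjusted p = 0.307). The call against WT HSC was lost without any 1 of the 7 libraries (adjusted p 0.065 to 0.151) and over 9 libraries (log2 fold change 1.04 ± 0.44, adjusted p = 0.791).

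**Figure D3:**
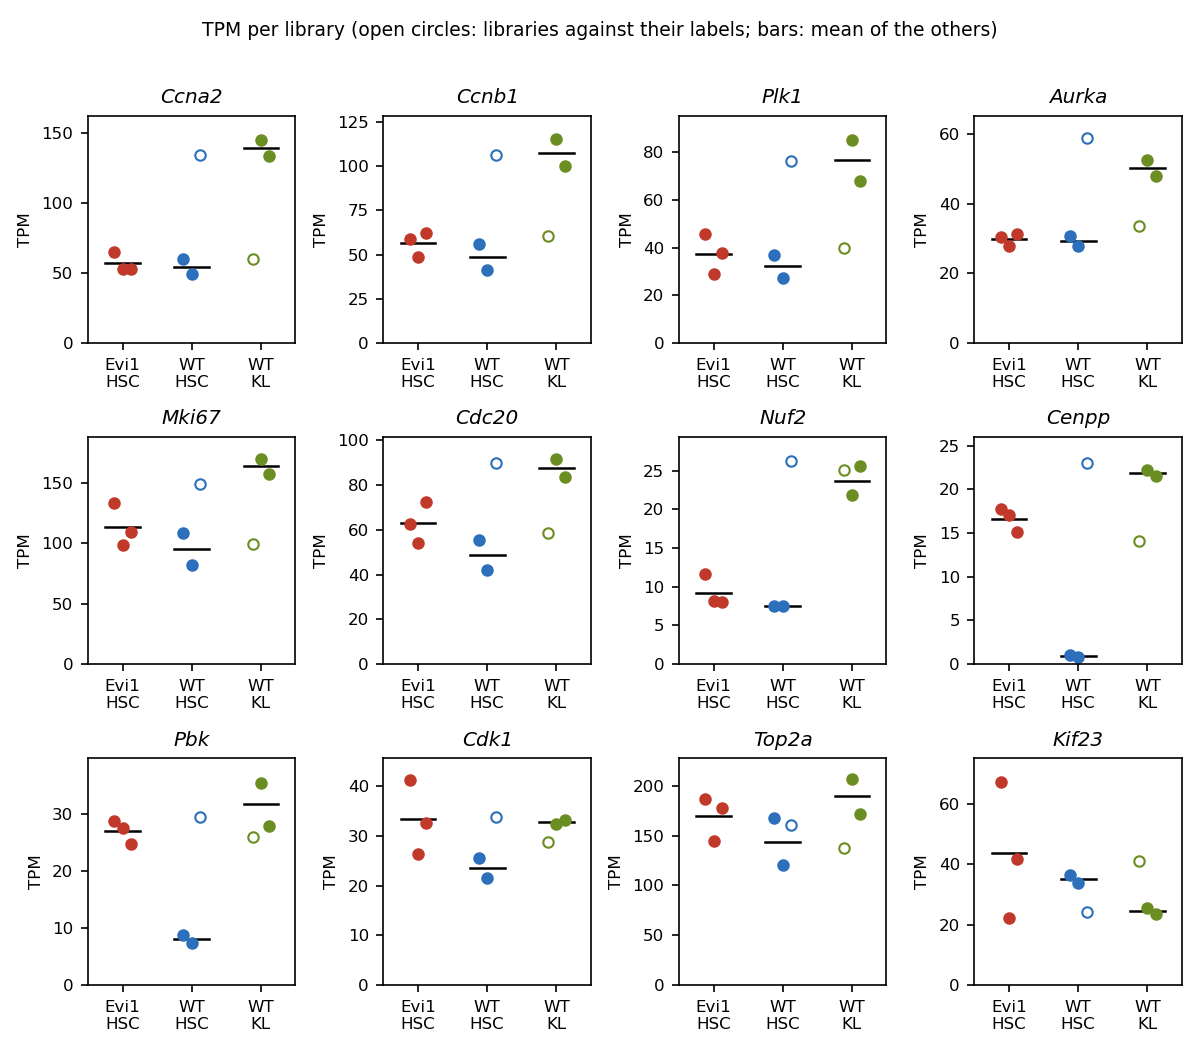
TPM of 12 members in each library, by group from Evi1 HSC to WT HSC and WT KL; open circles are the 2 libraries that went against their labels and bars are the means of the other libraries. Ccna2, Ccnb1, Plk1 and Aurka separate WT KL from both HSC groups, and Cenpp and Pbk are low in WT HSC replicates 1 and 2, at 0.787 to 1.05 TPM and 7.43 to 8.69 TPM.

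The chromosomal passenger complex, which corrects wrong attachments at the centromere, was lower in WT HSC in 3 of its 4 members. Birc5 (survivin) measured 27.8, 27.1 and 22.0 TPM in Evi1 HSC, 24.1 and 16.7 TPM in WT HSC and 43.3 and 35.1 TPM in WT KL. Cdca8 (borealin) measured 46.7, 39.2 and 42.2 TPM in Evi1 HSC, 34.2 and 34.7 TPM in WT HSC and 64.8 and 57.0 TPM in WT KL. Both were below the WT KL range in each HSC library. Against WT KL, Birc5 fell by 0.92 ± 0.22 in WT HSC (adjusted p = 0.0172) and fell by 0.59 ± 0.20 in Evi1 HSC (adjusted p = 0.0493). Cdca8 fell by 0.80 ± 0.14 in WT HSC and fell by 0.50 ± 0.13 in Evi1 HSC (adjusted p = 0.00511 and 0.017). Incenp, the scaffold, fell by 0.73 ± 0.20 in WT HSC against WT KL (adjusted p = 0.0271), with 43.5, 46.6 and 47.0 TPM in Evi1 HSC, 39.6 and 26.4 TPM in WT HSC and 57.8 and 51.0 TPM in WT KL. Aurkb, the catalytic kinase, missed the threshold at -0.53 ± 0.20 in WT HSC and -0.36 ± 0.18 in Evi1 HSC (adjusted p = 0.0769 and 0.152), each against WT KL. Its Evi1 HSC and WT HSC values differed by 0.17 ± 0.18, with 44.7, 31.0 and 40.4 TPM in Evi1 HSC, 34.4 and 33.4 TPM in WT HSC and 55.2 and 44.3 TPM in WT KL.

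At the kinetochore, Nuf2 and Spc24 of the Ndc80 complex were lower in both HSC groups than in WT KL, and Ndc80 and Spc25 were not called. Nuf2 and Ndc80 form the arm of the Ndc80 complex that binds microtubules, and Spc24 and Spc25 the arm that binds the inner kinetochore. Nuf2, at chr1:169497934-169531464 on the minus strand (GRCm38), had 11.6, 8.09 and 7.98 TPM in Evi1 HSC, 7.56 and 7.49 TPM in WT HSC and 21.8 and 25.6 TPM in WT KL. The library labelled WT KL replicate 1 had Nuf2 at 25.1 TPM, within the WT KL range, although its gate genes were those of the HSC gate, and the one labelled WT HSC replicate 3 had 26.2 TPM. Nuf2 fell by 1.53 ± 0.22 in WT HSC (adjusted p = 0.0023) and fell by 1.28 ± 0.20 in Evi1 HSC (adjusted p = 0.00223), each against WT KL. Ndc80 had 12.9, 8.89 and 10.7 TPM in Evi1 HSC, 9.48 and 7.6 TPM in WT HSC and 7.15 and 7.55 TPM in WT KL. Its groups did not overlap between either HSC group and WT KL, but its changes of 0.19 ± 0.21 and 0.49 ± 0.20 did not pass (adjusted p = 0.533 in WT HSC and 0.0815 in Evi1 HSC), and the value in WT HSC was -0.20 after quantile normalization. Between Evi1 HSC and WT HSC, Ndc80 differed by 0.30 ± 0.20 (adjusted p = 0.747) and Nuf2 by 0.25 ± 0.20 (adjusted p = 0.81).

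Spc24 measured 29.5, 30.1 and 22.7 TPM in Evi1 HSC, 28.2 and 24.3 TPM in WT HSC and 46.4 and 35.9 TPM in WT KL, and fell by 0.62 ± 0.20 in WT HSC (adjusted p = 0.0488) and fell by 0.57 ± 0.18 in Evi1 HSC (adjusted p = 0.0428), each against WT KL. Leaving out 1 library kept the Spc24 call in WT HSC only without Evi1 HSC replicate 3, which is not in that comparison. In Evi1 HSC the call was kept in 0 of 7 fits. Spc25 varied within WT HSC, at 23.1 and 8.0 TPM, and was not called. Of the centromere proteins, Cenpa, the histone variant, measured 98.7, 86.6 and 146 TPM in Evi1 HSC, 95.0 and 87.6 TPM in WT HSC and 85.9 and 76.9 TPM in WT KL. Its level was highest in Evi1 HSC replicate 3 and above the WT KL range in each HSC library, without passing the test (0.16 ± 0.24 in WT HSC and 0.40 ± 0.22 in Evi1 HSC). Cenpe, a kinetochore motor, and Cenpf, a large kinetochore protein of G2 and M phase, stayed between 9.63 and 22.4 TPM in the 9 libraries and were not called.

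Cenpp encodes CENP-P, a subunit of the constitutive centromere network of the inner kinetochore, and lies at chr13:49464023-49652785 on the minus strand (GRCm38). It had 17.8, 17.04 and 15.2 TPM in Evi1 HSC, 1.05 and 0.787 TPM in WT HSC and 22.2 and 21.6 TPM in WT KL. The libraries labelled WT HSC replicate 3 and WT KL replicate 1 held 23.0 and 14.1 TPM, so WT HSC replicates 1 and 2 stood apart from the other 7 libraries. The library labelled WT KL replicate 1 carried no Cre by its label and had gate genes of the HSC gate. Its Cenpp nonetheless lay near the Evi1 HSC range, so the difference between the HSC groups rests on WT HSC replicates 1 and 2. Cenpp was higher in Evi1 HSC than in WT HSC by 3.20 ± 0.16 on the log2(TPM + 1) scale (adjusted p = 0.00126), and remained called without any 1 of the 7 libraries (adjusted p at most 0.0253). It fell by 3.58 ± 0.17 in WT HSC against WT KL (adjusted p = 5.57e-05), while Evi1 HSC against WT KL gave -0.38 ± 0.16 (adjusted p = 0.0875). Over 9 libraries the difference between Evi1 HSC and WT HSC was 1.99 ± 0.86 and was not called (adjusted p = 0.791).

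Of 2564 exonic bases of Cenpp, 322 (12.6%) overlap exons of other genes on the opposite strand in GENCODE M21, 315 of them in Ippk, an inositol phosphate kinase. The use of strand in counting is not stated in the notes at hand, so reads there cannot be assigned to 1 of the genes. Ippk itself had 8.94, 7.97 and 6.88 TPM in Evi1 HSC, 6.54 and 7.03 TPM in WT HSC and 12.1 and 12.3 TPM in WT KL. Its Evi1 HSC and WT HSC ranges overlapped. In all, 11 members share exonic bases with another gene, and 6 of them, Ccna2, Cenpp, Ube2c, Kif4, Kif20a and Prc1, share over 10% with an antisense gene and are uncertain in the same way.

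In the checkpoint, Bub1, Bub1b and Cdc20 were lower in WT HSC than in WT KL. Bub1b (BubR1) measured 64.8, 55.6 and 65.2 TPM in Evi1 HSC, 50.6 and 41.1 TPM in WT HSC and 73.6 and 64.6 TPM in WT KL. Cdc20 measured 62.7, 53.9 and 72.4 TPM in Evi1 HSC, 55.4 and 42.0 TPM in WT HSC and 91.5 and 83.4 TPM in WT KL. WT HSC lay below WT KL for both, while Evi1 HSC lay below WT KL for Cdc20 and reached into its range for Bub1b. Bub1 had 29.1, 36.7 and 29.5 TPM in Evi1 HSC, 31.3 and 22.7 TPM in WT HSC and 42.2 and 41.2 TPM in WT KL. Against WT KL, Cdc20 fell by 0.84 ± 0.19 in WT HSC (adjusted p = 0.0136) and had -0.48 ± 0.17 in Evi1 HSC (adjusted p = 0.0612). Bub1b fell by 0.59 ± 0.16 and Bub1, the kinase that recruits it, fell by 0.63 ± 0.20 in WT HSC (adjusted p = 0.0259 and 0.0429), with -0.16 ± 0.14 and -0.39 ± 0.18 in Evi1 HSC. Neither gene differed by the test between Evi1 HSC and WT HSC (0.43 ± 0.14 and 0.24 ± 0.18).

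Mad2l1 (Mad2), Ttk (Mps1) and Ube2c, the ubiquitin-conjugating enzyme of the anaphase-promoting complex, were not called in any comparison. For Ube2c and Mad2l1 a single library set the spread of Evi1 HSC. Ube2c had 34.5, 84.5 and 96.7 TPM in Evi1 HSC, 88.9 and 53.0 TPM in WT HSC and 119 and 107 TPM in WT KL. Mad2l1 had 40.7, 18.6 and 16.3 TPM in Evi1 HSC, 19.9 and 17.9 TPM in WT HSC and 31.1 and 26.9 TPM in WT KL. Evi1 HSC replicate 1 was thus the lowest of the 9 libraries for Ube2c and the highest for Mad2l1.

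Of the spindle genes only Hmmr, a spindle assembly factor, was called. It measured 33.2, 22.5 and 15.3 TPM in Evi1 HSC, 20.9 and 15.9 TPM in WT HSC and 54.1 and 45.6 TPM in WT KL. No HSC library reached the WT KL range, and Hmmr fell by 1.39 ± 0.34 in WT HSC and fell by 1.10 ± 0.31 in Evi1 HSC (adjusted p = 0.0176 and 0.024). Kif11 (Eg5), the motor that separates the spindle poles, had 69.7, 50.6 and 55.0 TPM in Evi1 HSC, 44.9 and 26.5 TPM in WT HSC and 66.8 and 53.5 TPM in WT KL. Evi1 HSC lay above WT HSC without overlap and within reach of WT KL, yet the difference of 0.73 ± 0.25 from WT HSC did not pass (adjusted p = 0.502). Nusap1, which bundles spindle microtubules, had 41.4, 29.8 and 31.4 TPM in Evi1 HSC, 32.0 and 19.1 TPM in WT HSC and 24.8 and 19.0 TPM in WT KL. It was one of the members with a positive value against WT KL, at 0.62 ± 0.26 in Evi1 HSC (adjusted p = 0.0904). Kif2c, a microtubule depolymerase, Kif4, a chromosome-bound motor, and Tpx2, the activator of Aurora A, had changes of -0.53 to 0.63 that were not called.

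Cytokinesis genes had a median log2 fold change against WT KL of -0.07 in Evi1 HSC and -0.14 in WT HSC. In WT HSC 5 of 6 had a negative value, and none was called in the main fit of 7 libraries. Prc1, which crosslinks the central spindle, was called in Evi1 HSC and not in WT HSC, at 52.2, 44.5 and 39.04 TPM in Evi1 HSC, 65.6 and 54.0 TPM in WT HSC and 66.1 and 64.9 TPM in WT KL. Each Evi1 HSC library was below each library of the other groups, including the 2 that went against their labels. Prc1 fell by 0.53 ± 0.16 against WT KL (adjusted p = 0.0294), and its -0.40 ± 0.16 against WT HSC did not pass (adjusted p = 0.566). Kif23, the motor of centralspindlin, varied within Evi1 HSC, at 67.3, 22.1 and 41.6 TPM, against 36.5 and 33.8 TPM in WT HSC and 25.4 and 23.6 TPM in WT KL. Anln (anillin), a scaffold of the contractile ring, had 46.8 TPM in Evi1 HSC replicate 1 and 18.3 to 32.5 TPM in the other 8 libraries. Neither was called, nor were Ect2, which activates RhoA at the midzone, Racgap1, the partner of Kif23, and Kif20a, a motor that carries the passenger complex to the midzone. Kif20a had 32.15 and 23.69 TPM in WT HSC and 44.27 and 45.06 TPM in WT KL, without overlap. Its change there was -0.67 ± 0.23 (adjusted p = 0.055), and with a filter of 5 TPM in 3 libraries it was called lower.

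Mki67, which coats mitotic chromosomes and is the antigen Ki-67, had 133, 98.8 and 109 TPM in Evi1 HSC, 108 and 82.0 TPM in WT HSC and 170 and 157 TPM in WT KL. All HSC libraries lay below WT KL, and Mki67 fell by 0.79 ± 0.19 in WT HSC and fell by 0.53 ± 0.17 in Evi1 HSC (adjusted p = 0.0167 and 0.0407), each against WT KL, and differed by 0.26 ± 0.17 between Evi1 HSC and WT HSC (adjusted p = 0.754). Top2a had 187, 145 and 178 TPM in Evi1 HSC, 168 and 120 TPM in WT HSC and 207 and 172 TPM in WT KL. Its Evi1 HSC and WT KL ranges overlapped and no comparison was called.

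Set side by side, 10 members were lower against WT KL in both HSC groups: Ccna2, Ccnb1, Plk1, Aurka, Birc5, Cdca8, Nuf2, Spc24, Hmmr and Mki67. Another 7 passed in WT HSC and not in Evi1 HSC, namely Ccnb2, Pbk, Incenp, Cenpp, Bub1, Bub1b and Cdc20, and Prc1 passed in Evi1 HSC and not in WT HSC. The test of that difference is Evi1 HSC against WT HSC, which only Cenpp and Pbk passed. The calls depended on single libraries of these small groups. The 7 fits counted below each left 1 library out. In WT HSC against WT KL, 3 of them left out Evi1 HSC libraries. In Evi1 HSC against WT KL, 2 left out WT HSC libraries. Those fits kept the compared values and changed only the shared spread, so a pass in them says little about single libraries. In WT HSC against WT KL, leaving out WT HSC replicate 2 left 7 lower members, as did leaving out WT KL replicate 2, and Aurka, Ccna2, Ccnb1, Cdca8, Cenpp, Nuf2 and Pbk passed in all 7 fits that left 1 library out. The others passed in 5 of 7 fits (Ccnb2, Plk1 and Birc5), 4 (Incenp, Bub1b, Cdc20, Hmmr and Mki67), 2 (Bub1) or 1 (Spc24). In Evi1 HSC against WT KL, leaving out WT KL replicate 2 left 4 lower members and leaving out WT KL replicate 3 left 6, and Aurka, Ccna2, Ccnb1 and Nuf2 passed in all 7. Plk1 and Cdca8 passed in 6 of 7, Hmmr in 4, Prc1 and Mki67 in 3, Birc5 in 2 and Spc24 in 0.

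The promoter motifs stood in members that were called and in members that were not, and a link to the calls was not tested. Of the 13 members lower in WT HSC against WT KL that had a promoter entry, 9 held a CHR element and 10 a CCAAT box. Of the 19 others with an entry, 16 held a CHR element and 14 a CCAAT box. Among the genes shown above with both motifs, Cdc20 and Mki67 were called lower in this comparison, and Cdk1 and Top2a were not. Cenpp, shown with neither in the printed window, had the largest fold change.

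Other genes of the mitotic machinery were read in 5 lists, each lower against WT KL in a smaller share than the members. In WT HSC, 7 of 22 outer kinetochore and checkpoint genes fell and 0 rose, among them Knl1, the docking platform of the checkpoint, at -0.87 (adjusted p = 0.00963). Of 19 inner kinetochore genes, 4 fell and 2 rose, with Cenpn, which reads CENP-A nucleosomes, at -1.46 (adjusted p = 0.000885) and Cenpt, which recruits the Ndc80 complex, at 1.04 (adjusted p = 0.044). Of 20 condensin, cohesin and separase genes 4 fell and 2 rose, of 17 genes of the anaphase-promoting complex 1 fell and 1 rose, and of 27 other spindle, centriole and midbody genes 5 fell and 2 rose. In Evi1 HSC against WT KL these lists had 5, 4, 3, 0 and 1 lower and 0, 3, 3, 1 and 5 higher genes, in the same order. Among all tested genes, 10.8% fell and 26.7% rose in WT HSC, and 14.3% and 31.3% in Evi1 HSC, each against WT KL. In Evi1 HSC the condensin, cohesin and separase list (15% lower) was near this share. The anaphase-promoting complex (0% lower) and the other spindle genes (3.7% lower) were below it. No gene of these lists was called between Evi1 HSC and WT HSC by limma, with 3, 1, 2, 0 and 7 at an unadjusted p under 0.05. Of all tested genes, 0.206% and 8.4% passed these limits. The medians of the lists there were 0.12, 0.15, 0.18, -0.01 and 0.28.

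Cep55, which recruits the abscission machinery to the midbody, moved against most members. It had 16.0, 13 and 18.5 TPM in Evi1 HSC, 10.3 and 6.83 TPM in WT HSC and 3.64 and 2.25 TPM in WT KL. It rose by 1.28 in WT HSC (adjusted p = 0.0128) and by 2.11 in Evi1 HSC (adjusted p = 0.000889), each against WT KL, and the groups did not overlap. Cenpv, a centromere protein that bears on cytokinesis, had 1.78, 1.88 and 2.13 TPM in Evi1 HSC, 8.14 and 4.96 TPM in WT HSC and 23.0 and 22.0 TPM in WT KL. It fell by 1.67 in WT HSC (adjusted p = 0.00236) and fell by 3.01 in Evi1 HSC (adjusted p = 0.000105) against WT KL.

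Of 25 regulators of mitotic entry, 8 (32%) fell and 1 (4%) rose in WT HSC against WT KL, where 10.8% and 26.7% of all tested genes did. In Evi1 HSC against WT KL, 4 (16%) fell and 4 (16%) rose, where 14.3% and 31.3% of all tested genes did. The share that fell in Evi1 HSC was thus near that of all genes. Mybl2 (B-Myb), which joins the MuvB complex at CHR promoters, had 19.8, 18.5 and 20.7 TPM in Evi1 HSC, 19.4 and 18.1 TPM in WT HSC and 55.4 and 54.4 TPM in WT KL. The HSC groups overlapped and lay far below WT KL, with changes of -1.5 in WT HSC and -1.44 in Evi1 HSC (adjusted p = 0.000372 in WT HSC). Foxm1, the forkhead activator of G2 and M phase genes, was not called, at -0.23 in WT HSC and 0.34 in Evi1 HSC against WT KL. Cks2, a small subunit of cyclin-dependent kinases, had 48.7, 41.3 and 30.2 TPM in Evi1 HSC, 50.8 and 32.2 TPM in WT HSC and 129 and 109 TPM in WT KL.

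DNA replication genes, active in S phase, were lower in a larger share than the 39 members together. In WT HSC 20 of 28 (71.4%) fell and 0 rose against WT KL, with a median of -0.70. In Evi1 HSC 23 of 28 (82.1%) fell and 0 rose against WT KL, with a median of -0.83. Among all tested genes, 10.8% and 14.3% fell in these comparisons. Ccne1, the cyclin of S phase entry, changed by -2.29 in WT HSC and -2.86 in Evi1 HSC, and Rrm2, a subunit of ribonucleotide reductase, by -1.74 and -2 in these groups, all called. Between Evi1 HSC and WT HSC 0 were called by limma, with 2 at an unadjusted p under 0.05, where 8.4% of all tested genes passed. The median of the replication genes was -0.10, where that of the 39 mitotic members was 0.29. In the 9 libraries as labelled limma called 0 genes of these 7 lists in any comparison. At an unadjusted p under 0.05 stood 14 replication genes in Evi1 HSC against WT KL and at most 4 genes of any other list or comparison. Of all tested genes, 15.2% passed this limit in Evi1 HSC against WT KL.

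**Figure D4:**
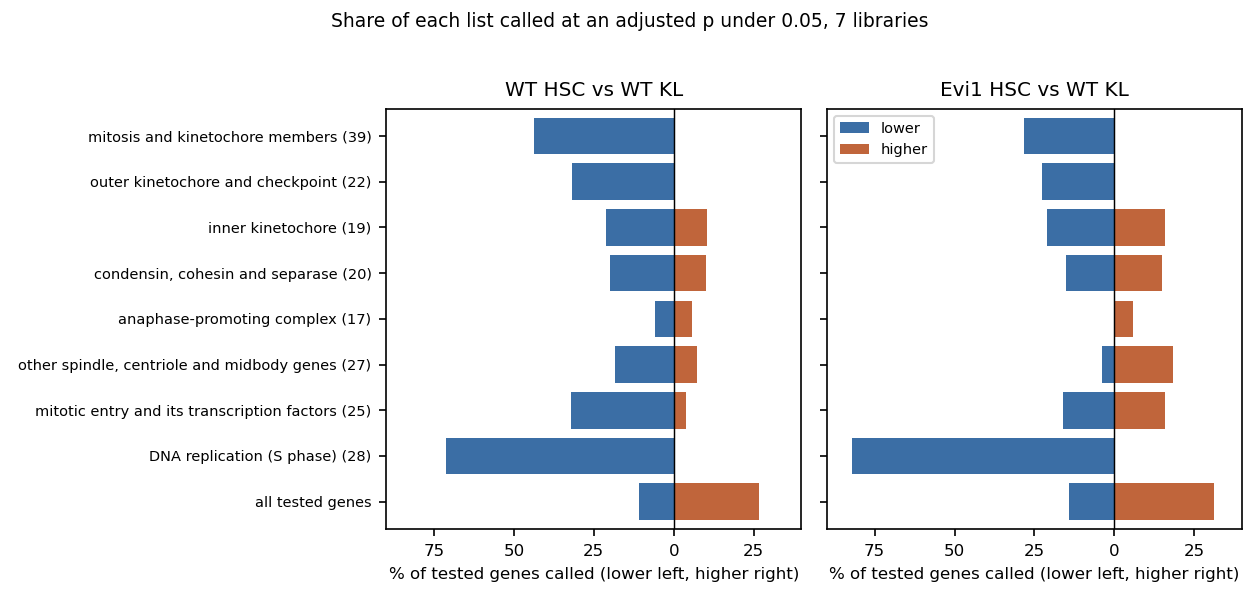
Share of the tested genes of each list (number in brackets) called lower (left of 0) or higher (right of 0) over 7 libraries, with WT HSC on the left and Evi1 HSC on the right, each set against WT KL; the bottom bars are all tested genes. The bars of the members reach 43.6% and 28.2% lower, those of DNA replication genes 71.4% and 82.1%, and those of all genes 10.8% and 14.3%.

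The gates also differed in lineage markers, which moved with these groups, and their part in the results was not tested. Mecom and Mpo, by which 2 libraries were left out, are themselves in the stem cell and granulocyte lists, so the counts of these 2 lists over 7 libraries describe that choice and are no test. Over the 9 libraries as labelled limma called 0 markers of any list, with 0 stem cell and 0 granulocyte and monocyte markers at an unadjusted p under 0.05 in WT HSC against WT KL and 2 of each in Evi1 HSC against WT KL. Of all tested genes, 1.45% and 15.2% passed this limit in these comparisons. In WT HSC against WT KL over 7 libraries, 10.8% of all tested genes were lower and 26.7% higher. In Evi1 HSC against WT KL these shares were 14.3% and 31.3%. Of 11 tested granulocyte and monocyte markers, 9 were lower and 1 higher in each HSC group against WT KL over 7 libraries. Their summed level was 50.2 to 57.3 TPM in Evi1 HSC, 53.8 and 49.5 TPM in WT HSC and 2118 and 640 TPM in WT KL, and Ctsg, S100a8 and S100a9 were at 0 in all Evi1 HSC and both WT HSC libraries. Stem cell markers were higher in both HSC groups for 10 of 10 genes, with sums of 794 to 959 TPM in Evi1 HSC, 836 and 901 TPM in WT HSC and 99.1 and 76.2 TPM in WT KL. Of 8 endothelial markers, 8 were higher in Evi1 HSC and 5 in WT HSC against WT KL, with sums of 330 to 734 TPM in Evi1 HSC, 400 and 248 TPM in WT HSC and 13 and 17.5 TPM in WT KL. Between Evi1 HSC and WT HSC, 4 of 11 erythroid markers were lower in Evi1 HSC and 0 of 8 endothelial markers were called. Of all tested genes, 0.149% were lower and 0.0565% higher there. The erythroid sum was 1133 to 2940 TPM in Evi1 HSC, 1074 and 1346 TPM in WT HSC and 1455 and 1426 TPM in WT KL, and 6 of 11 were lower in each HSC group against WT KL, with 1 higher in WT HSC and 2 higher in Evi1 HSC. Macrophage markers summed to 15.2 to 18.9 TPM in Evi1 HSC, 8.0 and 14.1 TPM in WT HSC and at most 5.63 TPM in WT KL, and of 2 tested, 2 were higher in Evi1 HSC and 1 in WT HSC against WT KL. Hepatocyte and stromal markers summed to 15.2 to 24.4 TPM in Evi1 HSC, 31.1 and 18.2 TPM in WT HSC and at most 5.13 TPM in WT KL, with the same counts of 2 tested genes. Lymphoid markers summed to at most 4.38 TPM in these 7 libraries, none passed the filter, and Cd3e was at 0 in all.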

How the data were processed

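RNA sequencing of 9 libraries was deposited by the authors as 1 table of TPM per gene and library, per the file headers. The values of WT HSC replicate 2 stand under the heading C_H3, and were read as TPM since they matched the other files in sum and range. The submitters' processing notes name HISAT2, StringTie and mm10, with no role or version. The annotation and any use of strand are not stated there. The listed genes held 56.9 to 63.8% of the TPM scale. TPM keeps no depth, so no counting interval or count test was possible. Values were analysed as log2(TPM + 1) in limma 3.58.1 (R 4.3.3) with a mean per group and a variance trend. The test took the 19461 of 55488 genes that reached 1 TPM in at least 3 libraries, with Benjamini-Hochberg adjustment over all of them and a call at an adjusted p under 0.05. Fold changes on this scale understate changes of low genes. The fit was made on 9 libraries as labelled and on 7, without the 2 that went against their labels, and was tested on simulated data. Alternatives were other pseudocounts and filters, quantile normalization, rescaling to the listed genes, fits of the compared groups only, the replicate number as a block, and leaving out each library. Members, roles and lists were chosen with earlier results of these data known. Fold changes were set to be named for called members, up to 8 a direction, and for Mki67, Cdk1, Ccnb1, Plk1, Aurkb, Bub1, Ndc80, Cenpp and Pbk. Those of other members were chosen after their values were seen. Of other lists, up to 3 called genes of the largest change per list and comparison, and of these the ones with a known role, were named, and Foxm1, which was not called, was added. Coordinates are from GENCODE M21 (GRCm38), which held 55141 of the listed identifiers, and promoters from RefSeq (GRCm38.p6).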

Additional observations from a re-analysis of the deposited data

How the results depend on the processing

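Leaving out the 2 libraries that went against their labels changed the count of called members from 0 to 2 in Evi1 HSC against WT HSC, from 0 to 17 in WT HSC against WT KL and from 0 to 11 in Evi1 HSC against WT KL. When 1 of the 9 libraries was left out, 0 to 1 members were called in Evi1 HSC against WT HSC, 0 to 1 in WT HSC against WT KL and 0 in Evi1 HSC against WT KL. When 1 of the 7 was left out, these counts were 1 to 1, 7 to 18 and 4 to 10. With only the compared groups in the fit, 1 member, Cenpp, was called in Evi1 HSC against WT HSC. Without the filter on low values, more genes were adjusted for and 6 members were called in Evi1 HSC against WT KL. With the replicate number as a block, 0 members were called in Evi1 HSC against WT HSC (Cenpp, adjusted p = 0.0703), 14 in WT HSC against WT KL and 11 in Evi1 HSC against WT KL. The numbers are not shown to pair the samples: deviations of same-numbered libraries correlated at -0.06 to -0.01 over 7 libraries. With 2 libraries in each WT group the deviations within a group mirror each other, so this check can hardly show a pairing. Over 9 libraries same-numbered WT libraries correlated at -0.64 to 0.70 and different-numbered ones at -0.85 to 0.73. Quantile normalization moved the median of all genes over 7 libraries to -0.10 in WT HSC and -0.08 in Evi1 HSC against WT KL, from 0.26 and 0.28. The member medians were then -0.60 and -0.23, with 14 and 8 members lower. The cause of these changes was not tested.

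Some small fold changes changed sign, and none was called with its changed sign. Without both libraries, the change between Evi1 HSC and WT HSC was 0.22 for Ccnb1, 0.21 for Plk1, 0.17 for Aurkb and 0.24 for Bub1, and in WT HSC against WT KL it was 0.19 for Ndc80, while Aurkb (-0.53) and Bub1 (-0.63) kept their sign. With 1 of 9 libraries left out, Evi1 HSC against WT HSC ranged from -0.45 to 0.22 for Ccnb1, -0.52 to 0.21 for Plk1, -0.20 to 0.17 for Aurkb, -0.28 to 0.24 for Bub1 and -0.17 to 0.26 for Mki67. In WT HSC against WT KL, Aurkb ranged from -0.37 to 0.03, Bub1 from -0.41 to 0.11 and Ndc80 from -0.19 to 0.08, and in Evi1 HSC against WT KL Cdk1 ranged from -0.10 to 0.22. With 1 of 7 left out, Plk1 ranged from -0.01 to 0.43 in Evi1 HSC against WT HSC. Quantile normalization gave -0.20 for Ndc80 in WT HSC against WT KL over 7 libraries. The depth of the libraries is unknown, so what it limits could not be given.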

Other observations

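Members differed in how far they followed the rest of the set across the 9 libraries. The correlation of a member's log2(TPM + 1) with the mean of the other members was highest for Bub1b and Cdc20 (r = 0.94 each) and Mki67 (r = 0.93). It was lowest for Kif23 (r = -0.19), Ndc80 (r = -0.15) and Cenpa (r = -0.12), followed by Nusap1 (r = 0.05) and Anln (r = 0.10). These values describe 9 libraries that share groups, gates and the TPM scale, and no test was made of them. Cenpa and Ndc80 were also the members higher without overlap in both HSC groups against WT KL over 7 libraries, and neither was called.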
